A study of Mus musculus with 37 samples.

Results

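The genes described here are 9 enzymes of glycolysis and lactate formation, Gpi1, Aldoa, Tpi1, Gapdh, Pgk1, Pgam1, Eno1, Pkm and Ldha, and the glucose transporter gene Slc2a1. These 10 genes were chosen by name from 23947 genes in the deposited table, and all 10 were found in it. Expression was measured in 37 single cells labelled as adipose tissue macrophages from epididymal white fat. The mice were male age-matched C57BL/6J animals, with no transgene or deletion named, on a high-fat diet with 60% of the energy from fat, 20% from carbohydrate and the rest from protein. Fat depots were minced and treated with collagenase for 30 min, and sorted cells were captured one by one in the microfluidic chambers of a Fluidigm C1 instrument for sequencing of their polyadenylated RNA. All 37 cells share these labels and no animal is named for any of them, so they form 1 group that counts as 1 sample, no control diet is compared, and the cells give neither p-values nor standard errors. The sources used here do not state the sort gate. A cell is called by its label number, 0 to 36.

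Glycolysis breaks glucose down to pyruvate in the cytosol, yielding ATP and NADH, and lactate dehydrogenase regenerates the NAD+ that the pathway consumes. Aldolase splits the sugar into triose phosphates, which the later enzymes turn into pyruvate, and several of the steps have tissue-restricted isozymes. In macrophages the pathway is known to be raised by inflammatory and hypoxic signals, and the adipose tissue of obese mice is a setting in which macrophage metabolism has been widely studied.

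Values are FPKM, an expression unit scaled for transcript length and sequencing depth. Detection of a gene means a level of at least 1 FPKM in that cell, and genes detected in 5 cells or more are called measured. The FPKM of a cell summed to between 225528 and 1841670 (median 326230), and 1224 to 3204 genes were detected per cell (median 1824). The number of fragments behind a value is unknown. Because a 0 here may come from a failed estimate, such genes are described as listed at 0. Each cell had between 8 and 13 of 13 macrophage marker genes detected, with a summed level of 139 to 47067 FPKM (median 15130). Cells 7 and 27 stood apart: 6 and 7 of 8 fibroblast marker genes were detected in them, with summed levels of 5198 and 10680 FPKM against at most 604 FPKM in any other cell. No cell had 3 detected markers of adipocytes, dendritic cells, T cells, B cells, neutrophils, endothelial cells, erythroid cells, or mast cells and eosinophils.

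Several of these genes have near-identical copies elsewhere in the genome, which bears on how far their values can be read. Of the distinct 50-base stretches in the GENCODE M21 transcripts of each gene, the share also found in transcripts of another gene was 68.0% for Pgk1, 58.4% for Gapdh, 49.5% for Eno1, 41.5% for Pgam1, 24.5% for Gpi1 and 23.7% for Pkm. The share was 10.4% for Ldha, 6.83% for Tpi1, 6.57% for Aldoa and 1.56% for Slc2a1. Gapdh shared stretches with 222 other genes, of which 213 are annotated as pseudogenes. Aldoart1 shares more of these stretches with Aldoa than any other gene does, 94 or 3.04%. In the part shown here, however, this copy can be told apart. Bases 121 to 240 of the coding region of Aldoa (transcript Aldoa-202, chromosome 7) differ from those of Aldoart1, a copy on chromosome 4, at 18 positions, which are in capitals.
Aldoa: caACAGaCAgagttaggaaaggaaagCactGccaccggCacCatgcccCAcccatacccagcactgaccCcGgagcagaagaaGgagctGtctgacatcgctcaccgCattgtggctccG
Aldoart1: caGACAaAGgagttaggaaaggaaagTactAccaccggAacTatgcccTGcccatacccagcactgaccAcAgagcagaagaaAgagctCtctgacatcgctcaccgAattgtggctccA
The sources used here do not say how fragments from shared stretches were assigned, so the levels of Pgk1, Gapdh, Eno1 and Pgam1 are the least certain of the 10.

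Most of the pathway was patchily seen. Of the 10 genes, 9 were measured, where 19.6% of all genes were, and 5 were detected in at least 19 of 37 cells, where 4.03% of all genes were. These 5 were Aldoa, Ldha, Gapdh, Pkm and Gpi1. Enzymes of successive steps differed widely: Aldoa was detected in 35 cells, Tpi1 in 18, Gapdh in 30, Pgk1 in 13, Pgam1 and Eno1 in 5 each, Pkm in 24 and Ldha in 33. Ordered by median FPKM, a length-scaled level, Gapdh came first at 114, then Aldoa at 90.3, Ldha at 68.9, Pkm at 20.2, Gpi1 at 1.73, Tpi1 at 0.590 and Pgk1 at 0.0589, with Eno1 at 3.06e-04 and Pgam1 and Slc2a1 at 0. Among all genes ranked by median, Gapdh was 175th, Aldoa 201st, Ldha 230th and Pkm 402nd. Several medians depended on which cells entered. Without cells 7 and 27, those of Ldha and Aldoa were 32.3 and 56.9 FPKM, while Gapdh stood at 76.8. Without cells 2, 7, 11, 15, 17, 24 and 26, Gpi1 stood at 0.392 and Tpi1 at 0.903 FPKM. These are the 7 cells in which 1 fragment was worth most by an earlier estimate. That estimate could not be checked against fragment numbers, which are unknown here. An earlier search of these data also set cells 0 to 19 and 20 to 36 apart as putative library parts, which the labels do not name. Between these ranges Pkm went from 1.40 to 136 FPKM and from place 5 to place 1 of the 10, and Gpi1 from 11.2 to 0.339 FPKM, while Ldha went from 75.7 to 16.9, Aldoa from 53.6 to 126, Gapdh from 71.3 to 136 and Tpi1 from 0.366 to 4.26.

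**Figure D1:**
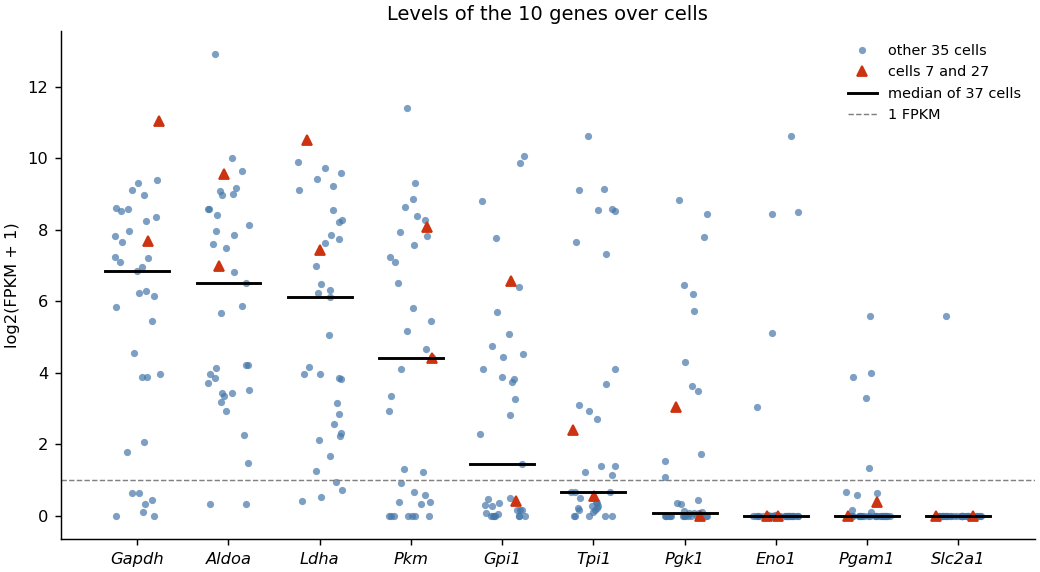
Level of each gene, as log2(FPKM + 1), in each of 37 cells (1 point per cell), with genes ordered by median (black bar), 1 FPKM as a dashed line and cells 7 and 27 as triangles. Gapdh, Aldoa and Ldha spread over most of the scale, while Eno1 and Slc2a1 sit at or near 0 in nearly all cells.

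Neighbours in this order overlapped in their spread over cells, and none of the pairs kept its order in every cell. Gapdh exceeded Aldoa in only 15 of 37 cells although its median was higher, Aldoa exceeded Ldha in 21, and Ldha exceeded Pkm in 24. Gpi1 exceeded Tpi1 in 15 cells and was lower in 20. Other neighbours were less even: Pkm exceeded Gpi1 in 25 cells and was lower in 10, and Tpi1 exceeded Pgk1 in 25 and was lower in 11. Eno1 exceeded Pgam1 in 28 cells and was lower in 8, although each was detected in only 5. The interquartile ranges of all 9 neighbouring pairs overlapped.

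The glucose transporter and the isomerase open the list. Slc2a1, which encodes the widely used basal glucose transporter GLUT1, was listed at 0 in 36 cells and stood at 46.6 FPKM in cell 26. Detection in 1 of 37 cells is 2.70% (exact Clopper-Pearson 95% interval 0.0684 to 14.2%, which, like the other intervals here, covers the sampling of cells only). Gpi1, which converts glucose 6-phosphate to fructose 6-phosphate, was detected in 19 cells, or 51.4% (34.4 to 68.1%). Its values ran from 0, listed in 7 cells, through a median of 1.73 to 1066 FPKM in cell 15 and 925 FPKM in cell 26. Only 4 cells had 100 FPKM or more of Gpi1, so its distribution is a long tail above a mostly low level.

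Aldoa, the aldolase that splits fructose 1,6-bisphosphate, was the most widely detected of the 10 genes, in 35 cells or 94.6% (81.8 to 99.3%). Its level was never listed at 0. It ranged from 0.248 through a median of 90.3 to 7641 FPKM, with an interquartile range of 10.5 to 378 FPKM. The highest value was that of cell 24, which alone held 50.4% of the gene's summed FPKM, and the next highest cell, cell 3, stood at 1032 FPKM. Tpi1, which interconverts the triose phosphates that aldolase makes, was detected in only 18 cells, or 48.6% (31.9 to 65.6%). Its median was 0.590 FPKM, and the highest cells were cell 26 at 1560 FPKM and cell 28 at 561 FPKM. A level of 100 FPKM or more was reached by Tpi1 in 8 cells and by Aldoa in 18. When each cell was rescaled to an equal FPKM sum, Aldoa was again highest in cell 24, but Tpi1 was highest in cell 16. Cells 15, 24 and 26, which hold the highest values of Gpi1, Eno1, Aldoa, Pkm, Tpi1 and Slc2a1, are among those 7 cells, and the part of depth in these peaks was not tested.

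Gapdh, which oxidises glyceraldehyde 3-phosphate and is widely used as a reference gene, was detected in 30 cells, or 81.1% (64.8 to 92.0%). It was listed at 0 in cells 2 and 12, had a median of 114 FPKM and an interquartile range of 13.7 to 304 FPKM, and reached 100 FPKM in 19 cells. Its highest level, 2088 FPKM, was in cell 27, one of the pair with fibroblast genes, and the highest level outside that pair was 666 FPKM. Pgk1, the kinase that makes the first ATP of the pathway, was detected in 13 cells, or 35.1% (20.2 to 52.5%). It was listed at 0 in 16 cells and was highest in cell 28 at 450 FPKM and cell 30 at 349 FPKM. Pgk1 is also the gene that shares most of its sequence with copies.

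The mutase and enolase were rarely seen. Pgam1, which moves the phosphate of phosphoglycerate, was detected in 5 cells, or 13.5% (4.54 to 28.8%), listed at 0 in 26, and never above 46.6 FPKM (cell 8). Eno1, the enolase of most tissues, was also detected in 5 cells, with 1579 FPKM in cell 15, 361 in cell 20, 347 in cell 35, 33.5 in cell 18 and 7.23 in cell 30. The other 32 cells were at or below 0.0117 FPKM of Eno1, so nothing lay between those cells and the 5. Eno1b, a copy that shares 48.4% of the 50-base stretches of Eno1, has its own entry in the table. It was detected in 3 cells, at 25.0 FPKM in cell 14, 3.99 in cell 2 and 2.10 in cell 16, and was listed at 0 in 32. The processed pseudogene Gm4735 shares 36.2% of the stretches, and the part of copies in the values of Eno1 was not tested.

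Pkm and Ldha end the pathway. Pkm, the pyruvate kinase of muscle and of leukocytes, was detected in 24 cells, or 64.9% (47.5 to 79.8%). It was listed at 0 in 7 cells, had a median of 20.2 FPKM and reached 2708 FPKM in cell 24, the same cell in which Aldoa peaked. The next highest cell for Pkm was cell 30 at 635 FPKM, which was the highest after rescaling. Ldha, which reduces pyruvate to lactate, was detected in 33 cells, or 89.2% (74.6 to 97.0%), and was never listed at 0. Its level ran from 0.345 through a median of 68.9 to 1442 FPKM, with an interquartile range of 4.96 to 298 FPKM. That highest value was in cell 27, and the highest outside cells 7 and 27 was 957 FPKM, in cell 18. Without those cells Gapdh and Ldha lost their highest values, and the fibroblast genes' part in them was not tested. After rescaling, Gapdh was again highest in cell 27, whereas Ldha was highest in cell 18.

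Spread between cells was large even for the best detected members. The upper quartile of Gapdh was 22.1 times its lower quartile, that of Aldoa 35.9 times, that of Ldha 60.1 times and that of Pkm 595 times. Commonly used reference genes were mostly narrower: the ratio was 2.43 for Actb (cytoskeletal actin), 3.87 for B2m (the MHC class I light chain), 3.95 for Ppia (cyclophilin A), 4.30 for Eef1a1 (a translation elongation factor) and 6.03 for Ywhaz (a 14-3-3 protein). On the log2(FPKM + 1) scale the SD over cells was 3.28 for Gapdh, 3.03 for Aldoa and 3.17 for Ldha, against 1.08 for Actb and 1.73 for Eef1a1. Not every reference gene was narrow, since Rpl3, a ribosomal protein gene, had a ratio of 41.6 and Hprt, a purine salvage enzyme gene, one of 309. Gapdh, itself a reference gene, lay with the wider ones in these cells.

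Within single cells the number of the 10 genes detected ran from 2 to 8, with a median of 5. Only 2 were detected in cells 0 and 22, whereas 8 were in cell 26 and 7 in cells 20, 21, 28, 30 and 35. The summed level of the 10 genes ranged from 16.9 FPKM in cell 0 through a median of 874 to 10382 FPKM in cell 24. As a share of the cell's FPKM sum it ranged from 0.00748% in cell 0 to 0.889% in cell 20, with a median of 0.255% (0.246% without cells 7 and 27). Cells 20 and 28 each had 6 of the 10 genes at 100 FPKM or more, cell 35 had 5, and cells 0, 8, 19 and 23 had none.

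**Figure D2:**
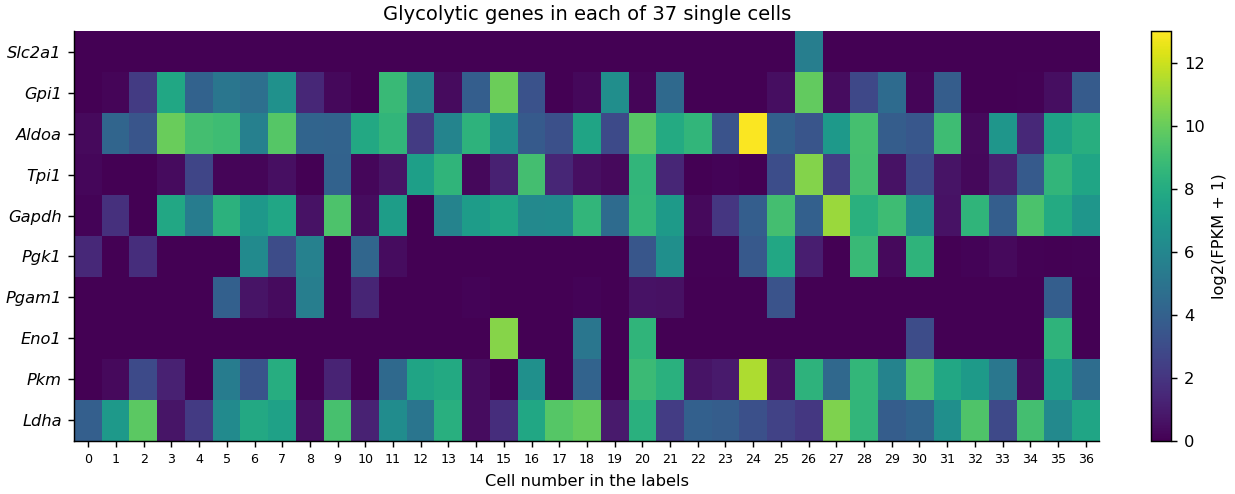
Level of the 10 genes, in pathway order, in each of the 37 cells (columns, by cell number), as log2(FPKM + 1) in colour. Cells 20, 28 and 35 have 5 or 6 genes at 100 FPKM or more, and cells 0, 8, 19 and 23 have none.

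No single enzyme led in all cells. Aldoa had the highest level of the 10 genes in 13 cells, Ldha in 8, Gapdh in 5, Tpi1 in 4, Pkm in 3, Gpi1 in 2, and Pgk1 and Eno1 in 1 each. The leading gene made up a median of 57.6% of the summed level of the 10, from 21.7 to 97.4%. The transcript levels of successive enzymes were thus unequal within a cell, and which one was high differed from cell to cell.

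The genes varied together only weakly. Over the 36 pairs of the 9 measured members the mean Spearman rho across 37 cells was 0.10, beside 0.03 over all pairs of the 4694 measured genes. Of these pairs 66.7% were positive, beside 56.5% over all measured genes. For the 5 members detected in at least 19 cells the mean was 0.13, beside 0.03 over 965 genes so detected. Each point of these correlations is a cell, whose library and depth all its genes share, and the values are descriptions.

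**Figure D3:**
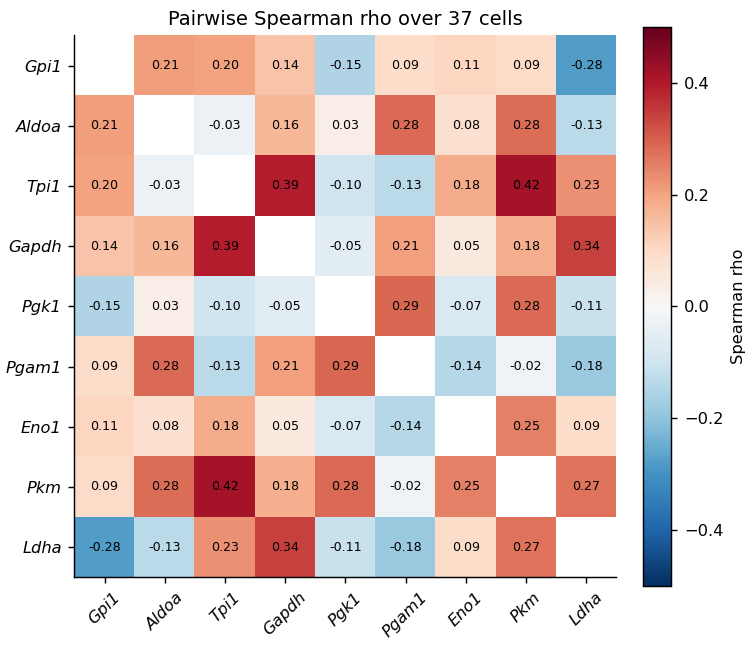
Spearman rho across 37 cells for each pair of the 9 measured members, in pathway order. The highest value is 0.42, for Tpi1 with Pkm, and the lowest is -0.28, for Gpi1 with Ldha.

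The pairs of highest rho were Tpi1 with Pkm at 0.42, Tpi1 with Gapdh at 0.39 and Gapdh with Ldha at 0.34. Tpi1 with Pkm stood at 0.33 in cells 0 to 19 and 0.18 in cells 20 to 36, and at 0.41 given the number of genes detected. For Tpi1 and Pkm, 13 cells had both genes detected, where the product of their detection rates gives 11.7. Gapdh with Ldha stood at 0.19 and 0.45 in the same cell ranges and at 0.27 without cells 7 and 27. In 10 cells both Gapdh and Ldha were at 100 FPKM or more.

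For some members the relation differed between the ranges. Aldoa with Gapdh had a rho of 0.16, made of 0.58 in cells 0 to 19 and -0.24 in cells 20 to 36. Pkm with Ldha, the last pair of enzymes in the pathway, had a rho of 0.27, with 0.47 and -0.11 in those ranges. Without the 7 cells that the earlier estimate placed highest in value per fragment, the rho of Pkm with Ldha was 0.45. Gpi1 with Ldha was negative in both ranges, at -0.34 and -0.18. The sign thus differed between the ranges for Aldoa with Gapdh and for Pkm with Ldha, but not for Gpi1 with Ldha.

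Other genes of glucose entry were detected about as often as genes at large. Of 11 other genes of glucose uptake and hexokinases, 0 were detected in at least 19 cells, beside 4.03% of all genes, and 7 were detected in no cell, beside 58.3% of all genes. Hk3, a hexokinase of myeloid cells, was the most widely detected, in 8 cells with a highest level of 600 FPKM, followed by Hk1 in 7 and Hk2 in 5, enzymes that trap glucose as its 6-phosphate. Slc2a3, the gene of another glucose transporter, was detected in no cell. A count of 0 of 37 cells allows a share of up to 8.11% by the limit of 3 counts, and of up to 9.49% by the exact interval used for the other shares. Of the 7 genes found for the phosphofructokinase step, which commits sugar to glycolysis, none was detected in at least 19 cells either. Pfkfb4, which sets the level of an allosteric activator of this step, led with 10 cells, and the platelet-type enzyme gene Pfkp followed with 7. The transporters and early kinases of these lists were therefore each seen in at most 10 of 37 cells, while Aldoa, Gapdh and Ldha were seen in at least 30.

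The other isozymes of the members were mostly listed at 0. Aldoc, Gapdhs, Pgk2, Pgam2, Eno2, Pklr, Ldhb and Ldhc, isozymes known from liver, brain, muscle, heart or testis, were listed at 0 in all 37 cells. They are 8 of the 12 genes of this list, beside 51.6% of all genes listed at 0 in every cell. Eno3, the muscle enolase gene, was detected in 1 cell at 10.8 FPKM and Eno4 in 3 cells at up to 52.8 FPKM. Bpgm, the 2,3-bisphosphoglycerate mutase gene, was seen in cell 27 only, at 52.2 FPKM. For pyruvate kinase and lactate dehydrogenase, no other isozyme of the list was thus detected.

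**Figure D4:**
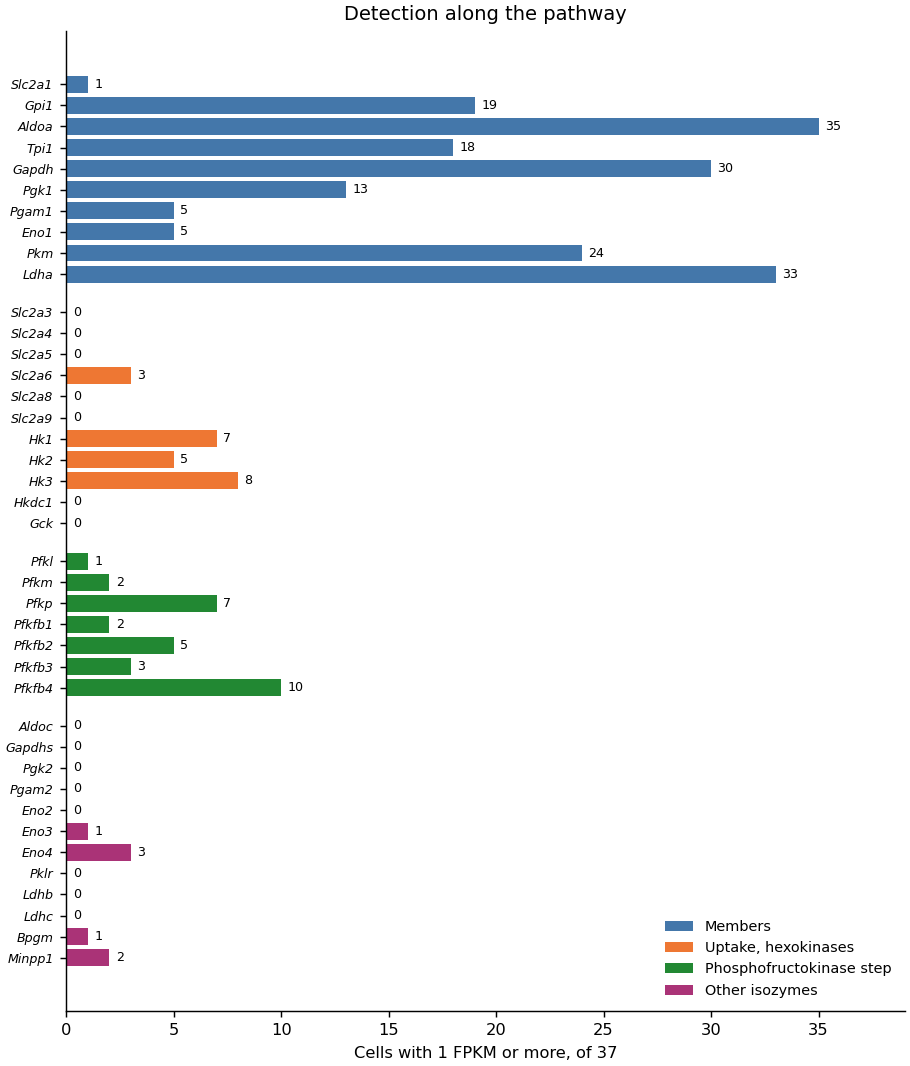
Number of the 37 cells in which each gene was detected (1 FPKM or more), for the 10 members in pathway order and 3 lists of related genes. Aldoa (35), Ldha (33), Gapdh (30), Pkm (24), Gpi1 (19), Tpi1 (18) and Pgk1 (13) stand above every gene of the other lists, of which Pfkfb4 (10) is the highest.

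Routes that meet glycolysis differed in detection. In pyruvate and lactate handling, 0 of 15 genes were detected in at least 19 cells, which is again near the 4.03% of all genes. Bsg, which encodes basigin, the chaperone of lactate transporters, led with 18 cells and up to 273 FPKM, whereas the lactate transporter genes Slc16a3 and Slc16a1 were detected in 2 cells and 1 cell. In the gluconeogenesis and glycogen list of 12 genes, Fbp1, Fbp2, Pck1 and G6pc, which encode enzymes that reverse glycolysis, were listed at 0 in all cells. These 4 of 12 stand beside 51.6% of all genes so listed, so the list held no excess of such genes. Pygl, a glycogen phosphorylase gene, was detected in 10 cells and reached 3945 FPKM. The pentose phosphate pathway, the branch that makes NADPH and ribose, had 2 of 8 genes in at least 19 cells: Pgd, its second dehydrogenase, in 30 with a median of 5.97 FPKM, and Taldo1, transaldolase, in 28 with a median of 25.8 FPKM. Sdhb, a succinate dehydrogenase subunit, was the only one of 14 citric acid cycle genes detected so widely, in 30 cells. The respiratory chain stood at the other end, with 16 of 17 listed subunit genes in at least 19 cells.

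Of 16 hypoxia response genes, a programme known to share targets with glycolysis, 0 were detected in at least 19 cells, a share near the 4.03% of all genes. Mif, the gene of a secreted macrophage factor, led with 18 cells and was highest in cell 27 at 4388 FPKM. Of its 50-base stretches 76.4% were also found in transcripts of 7 other genes, 5 of them annotated as pseudogenes, so its level is uncertain too. Hif1a, the oxygen-regulated factor itself, was detected in 5 cells and Vegfa in 2. Egln3, Adm and Ddit4 were listed at 0 in every cell, which is 3 of 16 genes beside 51.6% of all genes.

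A score was formed for each cell as the mean z value of log2(FPKM + 1) over the 9 measured members. It was highest in cells 20 (0.97), 35 (0.88) and 28 (0.87) and lowest in cells 0 (-0.85) and 23 (-0.71). Its rho with the number of detected genes was 0.37. Scores were made the same way for other lists with at least 4 measured genes. Beside rho stand a partial rho given the number of detected genes and Pearson's r with and without cells 20 and 35, the farthest from the median score.

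The score was positively related to housekeeping genes and to some, but not all, of the metabolic lists. Over the 2381 other genes detected in at least 10 cells, the median rho with the score was 0.10, and 70.1% of the values were positive. These are values of single genes, whereas a list score averages several genes, so the 2 kinds of rho are not directly comparable. The score's rho was 0.47 with housekeeping genes (partial 0.38), 0.38 with the respiratory chain (partial 0.23), 0.34 with the citric acid cycle (partial 0.25) and 0.28 with the pentose phosphate pathway (partial 0.17). In the same order, r was 0.41, 0.43, 0.36 and 0.32, and without cells 20 and 35 it was 0.34, 0.44, 0.41 and 0.27. With hypoxia response genes the rho was 0.18 (partial 0.16), with an r of 0.19, or 0.15 without those cells. Across settings the hypoxia rho ran from 0.027 in cells 20 to 36 to 0.51 after rescaling. It was 0.14 without cells 7 and 27 and 0.47 without cells 2, 7, 11, 15, 17, 24 and 26. With pyruvate and lactate handling it was 0.14 (partial -0.036), with an r of 0.14, or 0.10 without cells 20 and 35. With gluconeogenesis and glycogen it was 0.0066 (partial -0.14), with an r of 0.036, or 0.022 without them. Which list stood highest depended on the setting: housekeeping genes did over 37 cells, but after rescaling their 0.44 was below the 0.47 of the respiratory chain and the 0.51 of hypoxia response genes. In cells 0 to 19 the 0.27 of housekeeping genes was below the 0.37 of the citric acid cycle, the 0.33 of the respiratory chain and the 0.32 of the pentose phosphate pathway.

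Lists of macrophage states lay on both sides of 0. The rho was 0.28 with genes of CD9 lipid-associated macrophages, a population described in obese fat, but 0.12 given the number of detected genes, and r was 0.32, or 0.16 without cells 20 and 35. It was -0.29 with genes of CD206 resident macrophages and -0.30 with immediate early genes, the rapid transcription factors of stimulated or handled cells, and these were -0.29 and -0.30 again given the number of detected genes. For the CD206 list r was -0.26, or -0.18 without cells 20 and 35, and for immediate early genes -0.33, or -0.29. The rho was -0.17 with inflammatory cytokines (partial -0.067), with an r of -0.27, or -0.21 without those cells. With MHC class II it was -0.091 (partial 0.11), while r was -0.33, or -0.28 without them. Over all settings the CD206 value lay between -0.44 and -0.14 and the immediate early value between -0.45 and -0.16.

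**Figure D5:**
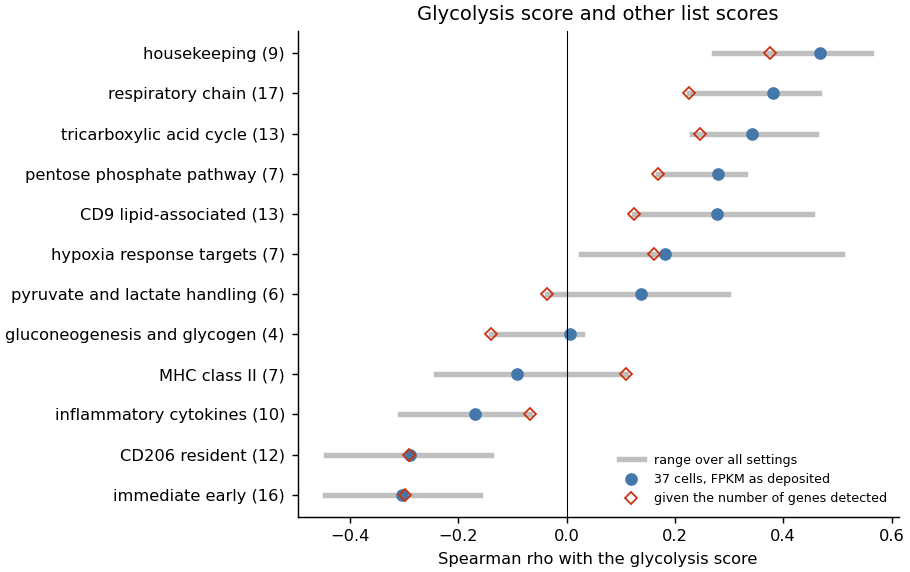
Spearman rho across cells between the glycolysis score and each other list score (number of genes scored in brackets), with the value over 37 cells (circle), the partial value given the number of detected genes (diamond) and the range over all settings (bar). Housekeeping genes have the highest value, 0.47, and immediate early genes the lowest, -0.30.

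Among 2381 other genes detected in at least 10 cells, 20 had a rho of 0.5 or more with the score, or 0.84%, and 0 had a rho of -0.5 or less, or 0%. The median rho of all these genes was 0.10. Among the 10 genes most like the score were Wdr1 (0.65), Psme2 (0.62), Pdia3 (0.62), Fam129b (0.60), Emp3 (0.58), Cct8 (0.58), Ssbp1 (0.54), Tbcb (0.54) and Dnaja1 (0.54). Wdr1 promotes actin filament disassembly, Psme2 is a subunit of a proteasome activator, Pdia3 is a disulfide isomerase of the endoplasmic reticulum, and Cct8 is a chaperonin subunit. Wdr1 was detected in all 37 cells with a median of 71.0 FPKM, and its rho was 0.59 in cells 0 to 19 and 0.68 in cells 20 to 36. With the score formed anew in each range, the values for Wdr1 were 0.55 and 0.59, and its place among all genes so compared was 22 and 31. Without cells 7 and 27, 8 of the 10 genes still met the detection rule, and these 8 were again among the first 10. After rescaling all 10 met it and 5 were among the first 10. In cells 0 to 19 alone 4 met it and 1 was, and in cells 20 to 36 alone 5 met it and 0 were.

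The 5 genes with the lowest rho were Sepp1 (-0.495), Akt1 (-0.46), Abca9 (-0.44), Mrc1 (-0.44) and Aif1 (-0.44). Sepp1 encodes a selenium transport protein, and Mrc1 the mannose receptor CD206. Sepp1 was detected in all 37 cells with a median of 895 FPKM, and its rho was -0.54 and -0.48 in the cell ranges 0 to 19 and 20 to 36. Mrc1, at a median of 76.0 FPKM, had -0.45 and -0.38 there. For Aif1, a marker of myeloid cells, the values were -0.79 and -0.07, so its place rested on the first range.

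Upstream sequences are shown for the members with the highest medians, Gapdh, Aldoa and Ldha. They are the 250 bases before an annotated RefSeq start in GRCm38.p6, 5′ to 3′ on the gene's strand, with ACGTG or GCGTG on either strand in capitals (read as CACGT or CACGC when on the other strand). These letters are the core of the element bound by hypoxia-inducible factors, and CACGTG, which holds ACGTG on both strands, is that of the E-box.
Gapdh, chr6:125165774-125166023, minus strand: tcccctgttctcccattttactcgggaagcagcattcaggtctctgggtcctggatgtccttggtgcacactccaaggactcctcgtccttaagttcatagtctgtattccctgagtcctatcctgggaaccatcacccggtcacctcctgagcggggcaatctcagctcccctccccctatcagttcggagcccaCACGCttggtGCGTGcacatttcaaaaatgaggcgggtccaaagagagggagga
Aldoa, chr7:126799255-126799504, minus strand: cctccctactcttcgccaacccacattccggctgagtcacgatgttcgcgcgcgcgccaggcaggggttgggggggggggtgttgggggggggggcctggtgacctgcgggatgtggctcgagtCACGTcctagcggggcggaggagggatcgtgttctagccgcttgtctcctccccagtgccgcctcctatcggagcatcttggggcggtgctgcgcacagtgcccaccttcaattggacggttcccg
Ldha, chr7:46845554-46845803, plus strand: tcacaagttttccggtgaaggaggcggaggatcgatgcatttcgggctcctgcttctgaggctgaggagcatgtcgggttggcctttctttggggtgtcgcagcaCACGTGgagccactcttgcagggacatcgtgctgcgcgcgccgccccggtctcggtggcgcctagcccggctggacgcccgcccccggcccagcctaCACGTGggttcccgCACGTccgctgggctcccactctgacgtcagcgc
The Aldoa and Ldha windows belong to 1 of 3 and 1 of 2 annotated starts, and which start these cells used was not measured. Windows of the same gene differed: of those not shown, 1 of Aldoa held neither ACGTG nor GCGTG and the other held ACGTG once. The Ldha window not shown held GCGTG once and no ACGTG. In the windows shown, Ldha held CACGTG at 2 places and ACGTG once more, Aldoa held ACGTG once and Gapdh GCGTG at 2 places. The Gapdh window thus lacked ACGTG, and the shown windows of Aldoa and Ldha lacked GCGTG. In all, 16 windows were found for the 10 genes, and ACGTG was in 7 of them, for 6 genes, where 16.6% of 32851 windows of that length hold it. GCGTG was in 7 windows, for 5 genes, where 28.2% of all windows hold it. CACGTG was in 1 member window, that of Ldha, beside 6.02% of all windows, and GGGCGG, the GC box bound by Sp1, was in 10 windows of 8 genes, beside 32.7%. Gpi1 and Tpi1 held neither ACGTG nor GCGTG, and Slc2a1 held both although it was detected in 1 cell. Several windows belong to 1 gene and overlap, and a match of letters is a description, not a binding site.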

How the data were processed

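Values were taken from 1 table of 23947 genes by 37 cells. The authors deposited FPKM; STAR, Cuffnorm and the build mm9 are named for this, per the submitters' processing notes, with versions, annotation and the handling of shared reads not given in the sources used here. FPKM are scaled to length and mapped fragments, so depth is unknown and no count model was used. Values were transformed to log2(FPKM + 1). Cells were not replicates, so Spearman's rho across cells is descriptive, and detection rates carry exact Clopper-Pearson 95% intervals. Python 3.11.15 with scipy 1.17.1 and pandas 2.3.3 was used, and the scoring was tested on simulated data. Of 256 genes in 26 lists, 252 were matched by symbol, all but Tigar, Trac, Ly6g and Siglecf.

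Members and lists were chosen with earlier results of these data known. Named genes were all 10 members, their isozymes, the genes of each list detected in at least 19 cells or else in most cells, and the 10 genes with the highest and 5 with the lowest rho; other genes were named after their values were seen, and some items are not reported here. Genes were matched by symbol to GENCODE M21 and RefSeq GRCm38.p6, another build than that of the table. Alternatives were detection at 0.1, 5 or 10 FPKM, pseudocounts of 0.1 and 10, rescaling each cell to an equal FPKM sum, partial rho, and subsets of cells.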

Additional observations from a re-analysis of the deposited data

How the results depend on the processing

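The number of members detected in more than 50% of the cells that entered was 4 to 6, against 5. The mean pairwise rho, which ran from 0.05 given the number of detected genes to 0.14 in cells 20 to 36, and the score's relation with housekeeping, respiratory chain, citric acid cycle, pentose phosphate, CD9, CD206, immediate early and inflammatory genes kept their direction and moved by less than 0.2 in rho under the alternatives run. The gluconeogenesis and glycogen value of 0.0066 turned to -0.029 with a pseudocount of 0.1, -0.14 given the number of detected genes, -0.041 after rescaling and -0.059 without cells 7 and 27. The pyruvate and lactate value of 0.14 turned to -0.013 with a pseudocount of 10 and -0.036 given the number of detected genes. The MHC class II value of -0.09 turned to 0.11 given that number and 0.010 without cells 7 and 27. The hypoxia value of 0.18 became 0.51 after rescaling and 0.47 without cells 2, 7, 11, 15, 17, 24 and 26. In cells 20 to 36 it fell to 0.027, and without cells 7 and 27 it was 0.14. The count of genes at a rho of 0.5 or more was 20 of 2381, or 0.84%. It became 7 of 960 (0.73%) when genes had to be detected in at least 19 cells, and 11 of 2174 (0.51%) without cells 7 and 27. In cells 0 to 19 the count was 35 of 1065 (3.29%). In cells 20 to 36 it was 71 of 849 (8.36%). Fewer cells and genes entered in these 2 ranges. The cause of the other changes was not tested. Some lists had fewer than 4 measured genes in a subset of cells and gave no value there. Detection rates of single genes moved in 13 of 80 comparisons with other thresholds, rescaling or subsets of cells. No paired analysis was possible because there is 1 group of cells.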
